A study of Mus musculus with 9 samples.

Results

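Expression of 9 integrin and adhesion genes, of the 29995 genes in the expression table, was examined in 3 populations of mouse splenic B-lineage cells. They are listed by name with no threshold on a measured value, and they were picked with earlier results of these data known. They were the integrin chains Itga4, Itgb1, Itgb7, Itga6, Itgal and Itgb2, the counter-receptor Icam1, the hyaluronan receptor Cd44 and the C-type lectin-like receptor Cd93. All 9 genes passed the filter on low values, which kept 12892 genes. RNA was sequenced from spleens of B6.Blimp1+/GFP mice, in which green fluorescent protein (GFP) reports the activity of Prdm1, the gene for the plasma cell regulator Blimp1. Every mouse was 12 weeks old and had received 50 µg of NP-LPS, a hapten joined to bacterial lipopolysaccharide, by the intraperitoneal route 4 days earlier, so that naive cells too came from immunized animals. Sorting gave 3 groups with 3 libraries each: naive B cells (high IgD, B220+, no binding of NP), NP-binding B cells (NP+, B220+, without IgD, GFP or CD138) and NP-binding plasma cells (PCs, NP+, GFP+, CD138+, without IgD and with or without B220). A dump gate on CD4, CD8a, Ter-119 and F4/80 was used, and none of the 9 genes encodes a marker of the sort.

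Integrins are receptors made of one α and one β chain, and they need both chains to reach the cell surface. The α4 chain pairs with β1, which binds VCAM-1 and fibronectin, or with β7, which binds MAdCAM-1, the ligand of mucosal vessels. The αL and β2 chains form LFA-1, the main integrin of lymphocytes, and ICAM-1 is one of its ligands. Signals from antigen and chemokine receptors change integrins to a binding form through the small GTPase RAP1, talin and kindlin. α4β1, LFA-1 and CD44 are known for holding B cells in splenic niches and PCs in bone marrow, and CD93, the antigen of the AA4.1 antibody, marks immature B cells and PCs.

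Values are TPM, the kallisto estimate of transcript abundance per unit of length, set to the same total in each library, from the table without immunoglobulin (Ig) genes. They are listed for replicates 1, 2 and 3 of a group or as mean ± SD (n = 3). Differences are log2 changes from limma, and a gene was called higher or lower with an adjusted p under 0.05 and a fold change over 2. The libraries held 28490278 to 31719387 estimated reads without Ig genes in naive B cells, 34918379 to 38602257 in NP-binding B cells and 20189947 to 22137412 in PCs. Defining markers followed the labels, with Sdc1 (CD138) at 255 to 322 TPM in PCs and at most 8.48 in the other libraries. In a table scaled to a fixed sum, leaving out the Ig genes multiplied TPM by 1.07 in naive B cells, 1.11 to 1.13 in NP-binding B cells and 3.33 to 3.60 in PCs, so a level in PCs is relative to their transcripts other than Ig. PC replicate 3 held liver transcripts (sum of 4 marker genes 1872 TPM, at most 1.81 elsewhere) and transcripts of the neutrophil list (31.3 TPM over 5 genes). NP-binding B cell replicate 2 held transcripts of the neutrophil list too (49.0 TPM). Of these 5 markers, 3 stayed under 1 TPM in every PC library and 3 in every NP-binding B cell library, so the sums rest on part of the list. In bulk RNA a gene carried by fewer cells cannot be told apart from a gene with less RNA per cell.

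Of the 9 genes, 7 were called in at least 1 comparison. Calls were common, with 2388, 4870 and 4150 of all 12892 tested genes called in the 3 comparisons given below. The share of all genes called in at least 1 of them was not counted, so the 7 are not read as a result about the set. In naive B cells, Itgb7 was the highest, followed by Itgb2. The libraries of Itgal, Itga4 and Icam1 came next and overlapped with their neighbours in the order, as did those of Itga6, Cd44 and Itgb1 below them. In NP-binding B cells, Itgb7 and Itgb1 overlapped at the top, and Itgb2, Itgal and then Itga4 with Icam1 followed. In PCs, Itgb2 led, Cd44, Itga4 and Itgal overlapped below it, then came Itgb1, and the libraries of Cd93, Itgb7, Icam1 and Itga6 overlapped with their neighbours at the bottom. Cd93 was the lowest of the 9 in both B cell groups.

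**Figure D1:**
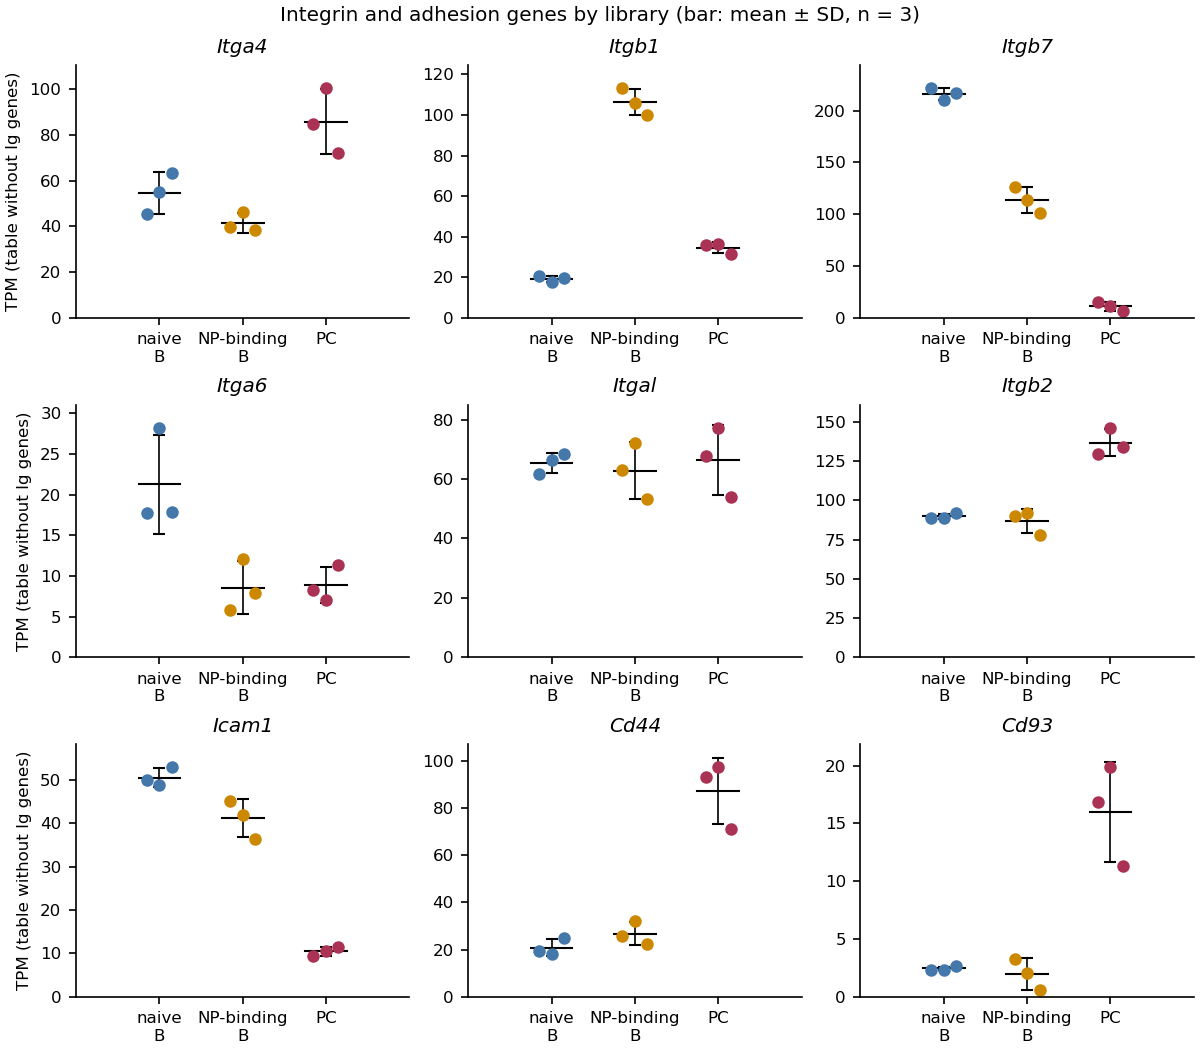
TPM of each of the 9 genes (vertical axis, table without Ig genes) in the 3 libraries of naive B cells, NP-binding B cells and PCs. Points are libraries, bars the mean ± SD, and the Itgb1 libraries of NP-binding B cells (100.2 to 113 TPM) lie above the Itgb1 libraries of the other groups, whereas those of Itgb7 step down from 210.0 to 222 TPM in naive B cells to 6.46 to 15.6 in PCs.

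Between NP-binding and naive B cells, 1 of the 9 genes was higher (Itgb1), 1 was lower (Itga6) and 7 were not called, where 8.13% of all tested genes were called higher and 10.4% lower. Between PCs and naive B cells, 2 were higher (Cd44 and Cd93), 3 were lower (Itgb7, Itga6 and Icam1) and 4 were not called, beside 11.4% and 26.3% of all genes. Between PCs and NP-binding B cells, 3 were higher (Itga4, Cd44 and Cd93), 3 were lower (Itgb1, Itgb7 and Icam1) and 3 were not called, beside 9.93% and 22.3%. The median log2 change of the 9 genes was -0.30, 0.59 and 0.09 in these comparisons, and that of all tested genes was -0.16, -0.47 and -0.30. The median of all genes moved to -0.06, -0.05 and 0.04 with median-of-ratios scaling, and in the PC comparisons to -1.40 and -1.27 with the Ig genes kept. The split of calls over all genes moved with it. For PCs against naive cells it was 1473 higher and 3397 lower, 2238 and 1967 with median-of-ratios scaling, and 551 and 7943 with Ig genes. For PCs against NP-binding B cells it was 1280 and 2870, then 1903 and 1894, then 420 and 7355. For NP-binding against naive B cells it was 1048 and 1340, and 1210 and 975 with median-of-ratios scaling. The counts among the 9 genes in the PC comparisons moved with the scaling too, as given in the section on processing below. Percentages of all genes given in this report are those of the main setting. A count given below for another setting is to be read beside the split over all genes under that setting.

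**Figure D2:**
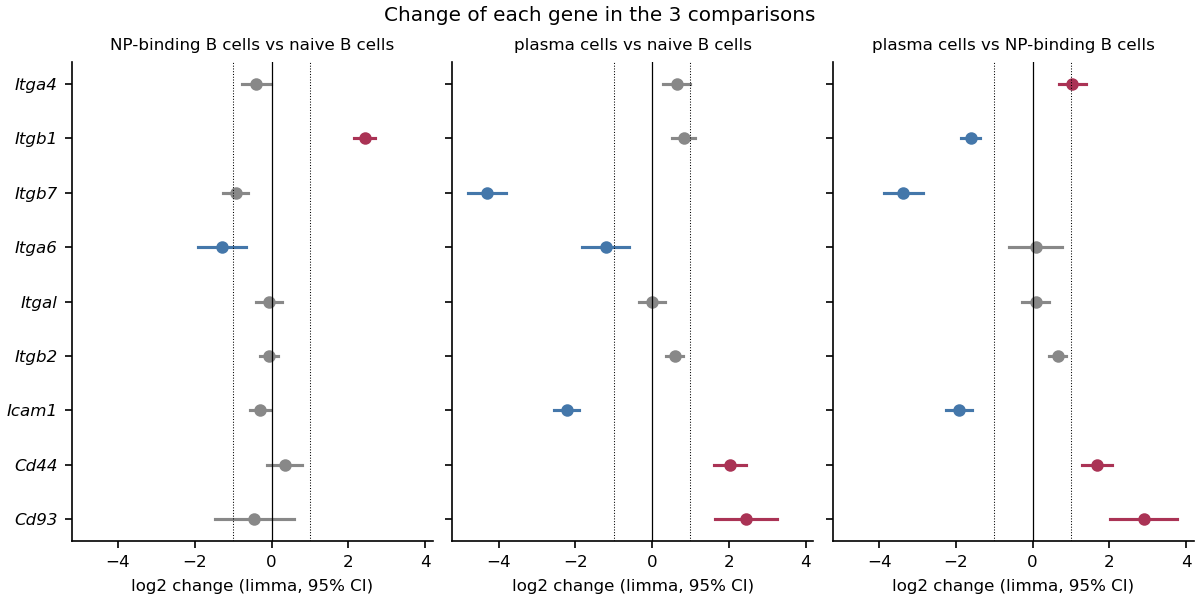
Log2 change of each gene (horizontal axis, limma on the table without Ig genes) with its 95% confidence interval in the 3 comparisons. Red marks genes called higher, blue genes called lower and grey genes not called, and dotted lines mark a fold change of 2. Itgb1 has the highest change in NP-binding B cells (2.43) and Itgb7 the lowest in PCs (-4.31). With Ig genes kept, the changes of Itga4, Itgal and Itgb2 in both PC comparisons, of Itgb1 in PCs against naive cells and of Itga6 in PCs against NP-binding B cells turn negative.

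The first question was how RNA of the β chains that pair with α4 compared between groups. Protein and pairing of chains were not measured. Itgb1 (ENSMUSG00000025809.15, chr8:128685654-128733200, plus strand, GRCm38) encodes β1, the shared chain of the matrix and VCAM-1 receptors. Its TPM was 20.6, 17.5 and 19.6 in naive B cells, 113, 106 and 100.2 in NP-binding B cells, and 35.8, 36.4 and 31.4 in PCs. The 3 groups did not overlap, and NP-binding B cells were the high group. Itgb1 rose 5.39-fold in NP-binding over naive B cells (log2 change 2.43, SE 0.12, adjusted p = 8.11e-07) and was 3.05-fold lower in PCs than in NP-binding B cells (log2 change -1.61, SE 0.11, adjusted p = 6.18e-07). Between PCs and naive B cells the log2 change was 0.82 (SE 0.14, adjusted p = 3.53e-04), under the required fold, and it was 1.31 with median-of-ratios scaling, 1.28 with quantile normalization and -0.35 with the Ig genes kept. At least 1643 estimated reads stood behind each value.

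Itgb7 (ENSMUSG00000001281.10, chr15:102215995-102231944, minus strand) encodes β7, the chain of the mucosal homing receptor. Its TPM was 222, 210.0 and 217 in naive B cells, 127, 114 and 101 in NP-binding B cells, and 15.6, 11.4 and 6.46 in PCs. The groups formed 3 separate steps. The loss was 19.8-fold in PCs against naive cells (log2 change -4.31, SE 0.22, adjusted p = 4.8e-08) and 10.3-fold against NP-binding B cells (log2 change -3.37, SE 0.23, adjusted p = 4.84e-07), and it was called under every setting tried. In NP-binding against naive B cells the log2 change was -0.94 (SE 0.15, adjusted p = 7.36e-04), 1.91-fold lower, which missed the required fold. It passed with quantile normalization (-1.23) and without NP-binding B cell replicate 1 (-1.02).

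A single scaling factor per library cannot alter a ratio within that library, although quantile normalization can, and the β chains were therefore also compared as shares of the TPM. Itgb7 made up 91.8% ± 0.425 (SD, n = 3) of the summed TPM of Itgb1 and Itgb7 in naive B cells, 51.6% ± 1.27 in NP-binding B cells and 23.7% ± 6.60 in PCs. Per library the share was 91.5, 92.3 and 91.8%, then 52.8, 51.8 and 50.3%, then 30.3, 23.8 and 17.1%. No library of one group reached the range of another. Each of the 3 differences had p = 0.1 in a two-sided exact permutation test (adjusted p = 0.129 over 9 such tests), which is the smallest p that 3 libraries against 3 allow.

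The regions just before the start sites of Itgb1 and Itgb7, the competing β chains, and of Icam1, which followed Itgb7 (Pearson r = 0.971 over the 9 libraries, a description), are shown for comparison. Each is the 250 bases before the RefSeq start (GRCm38.p6), 5′ to 3′ on the strand of the gene: chr8:128685404-128685653 for Itgb1, chr15:102231936-102232185 on the minus strand for Itgb7 and chr9:21015690-21015939 for Icam1. Capitals mark matches of GGGCGG (Sp1) and CACCC (KLF) on either strand in Itgb1 and Itgb7, and of GGAAATTCC (NF-kB) in Icam1.
Itgb1: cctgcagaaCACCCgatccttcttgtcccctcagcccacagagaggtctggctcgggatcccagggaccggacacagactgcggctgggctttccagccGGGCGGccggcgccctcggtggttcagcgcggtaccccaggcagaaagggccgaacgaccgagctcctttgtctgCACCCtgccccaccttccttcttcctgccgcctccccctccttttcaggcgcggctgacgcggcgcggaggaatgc
Itgb7: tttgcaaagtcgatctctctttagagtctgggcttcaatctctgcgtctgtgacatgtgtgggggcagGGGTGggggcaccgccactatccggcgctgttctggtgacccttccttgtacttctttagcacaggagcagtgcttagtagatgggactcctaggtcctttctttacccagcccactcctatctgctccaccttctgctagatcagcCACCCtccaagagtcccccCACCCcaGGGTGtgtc
Icam1: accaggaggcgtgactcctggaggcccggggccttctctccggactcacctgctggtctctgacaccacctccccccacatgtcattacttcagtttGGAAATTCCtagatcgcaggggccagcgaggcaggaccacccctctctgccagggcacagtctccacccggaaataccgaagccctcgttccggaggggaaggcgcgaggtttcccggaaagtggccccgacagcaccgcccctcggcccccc
The Itgb1 window held 1 match of GGGCGG and 2 of CACCC, and the Itgb7 window held 4 of CACCC and 0 of GGGCGG. Windows of the same length before 32851 RefSeq starts held GGGCGG in 32.7% and CACCC in 52.0%, so these letters are common. The Icam1 window held GGAAATTCC 153 bases before the start, and 0.286% of windows held that run. It also held 1 GGGCGG and 2 CACCC, left in lower case. None of the 3 windows held the ETS core CCGGAAG or the box TATAAA, each searched on both strands and found in 6.91 and 12.4% of windows. A match describes letters in the window and is not a measured site. Of the 9 genes, 5 were matched in the promoter table, Itga4 and Cd44 among them.

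Among the 9 genes, Itga4 and Itga6 encode α chains that pair with β1. Itga4 (ENSMUSG00000027009.18, chr2:79255426-79333123, plus strand), which encodes α4, was at 45.4, 54.8 and 63.5 TPM in naive B cells, 39.8, 46.2 and 38.2 in NP-binding B cells, and 84.7, 100.4 and 72.2 in PCs. The B cell groups overlapped and all PC libraries were above both. Itga4 was 2.05-fold higher in PCs than in NP-binding B cells (log2 change 1.04, SE 0.16, adjusted p = 2.75e-04), but the change was -0.15 (adjusted p = 0.38) with the Ig genes kept. The call was at the limit of the required fold and was lost without NP-binding B cell replicate 3 (0.98) and without PC replicate 2 (0.92). Against naive B cells the log2 change in PCs was 0.64 (SE 0.16, adjusted p = 0.00449), not called, and it was 1.13 with median-of-ratios scaling and -0.56 with Ig genes. The change between the B cell groups was -0.39 (SE 0.17, adjusted p = 0.0833).

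RNA of Itga4 was set beside that of its partner chains in each library. The summed TPM of Itgb1 and Itgb7 was 236 ± 7.55 in naive B cells, 220.3 ± 19.1 in NP-binding B cells and 45.7 ± 7.03 in PCs. TPM of Itga4 over that sum was 0.187, 0.241 and 0.268 in naive libraries, 0.166, 0.21 and 0.19 in NP-binding B cell libraries and 1.65, 2.1 and 1.91 in PC libraries. RNA of the partners thus exceeded that of Itga4 in all 6 B cell libraries and was below it in all 3 PC libraries. These ratios were formed after the values were seen and were not tested. They compare RNA only, and β1 also pairs with α6, so the sum is not what α4 alone could pair with.

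**Figure D3:**
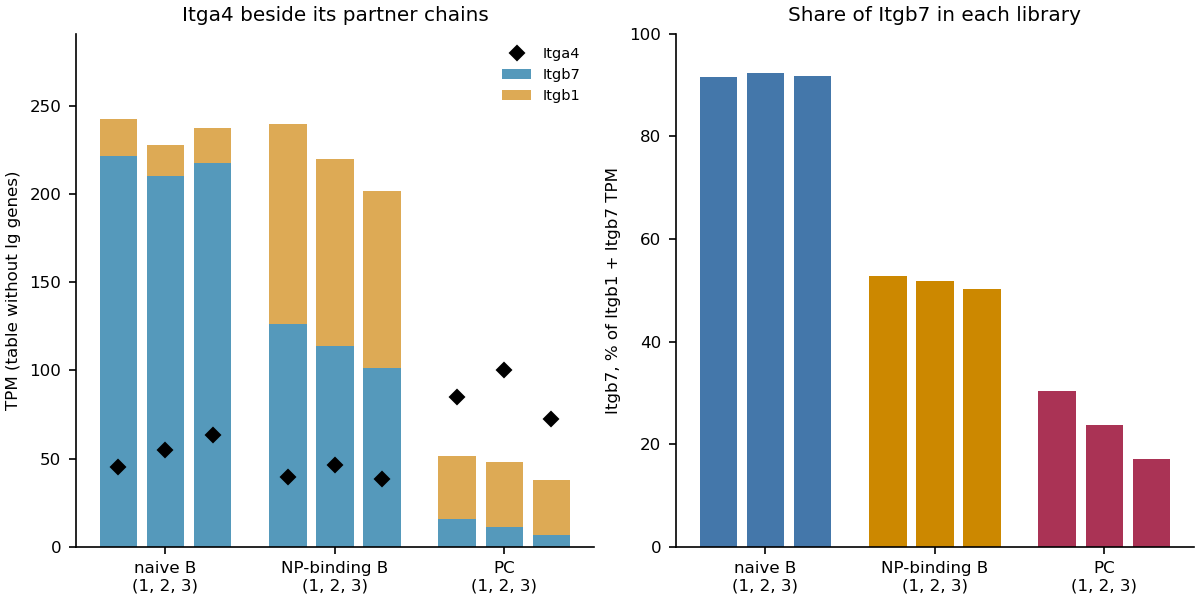
Left, stacked TPM of Itgb7 and Itgb1 (bars) and TPM of Itga4 (diamonds) in each of the 9 libraries, from the table without Ig genes. Right, share of Itgb7 in the summed TPM of Itgb1 and Itgb7, in percent, for the same libraries. The share steps down from 91.5 to 92.3% in naive B cells through 50.3 to 52.8% in NP-binding B cells to 17.1 to 30.3% in PCs, and the diamonds lie above the bars in PCs only.

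Itga6 (ENSMUSG00000027111.15, chr2:71745616-71858416, plus strand) encodes α6, a laminin receptor chain. It was at 17.7, 28.2 and 17.8 TPM in naive B cells, 5.76, 12.1 and 7.84 in NP-binding B cells, and 8.27, 7.06 and 11.3 in PCs. Naive libraries were above all others, and those of NP-binding B cells and PCs overlapped. Itga6 fell 2.45-fold in NP-binding B cells (log2 change -1.30, SE 0.28, adjusted p = 0.00435) and 2.31-fold in PCs (-1.21, SE 0.28, adjusted p = 0.00322). The PC call was lost with median-of-ratios scaling (-0.74, adjusted p = 0.0527), with quantile normalization (-0.64, adjusted p = 0.0909) and without naive replicate 2 (-0.99). Between PCs and NP-binding B cells the log2 change was 0.09 (95% interval -0.61 to 0.78). Only 93 to 524 estimated reads stood behind each value. The mean transcript length implied by the deposited values was 0.751 kb, where the longest coding transcript has 4.31 kb and 3 of 8 annotated transcripts are under 1 kb, and transcript-level values were not analysed here. Its rank by TPM beside the other genes is therefore uncertain, and so is the level of the share formed with it below. Itga4 made up 72.0% ± 6.03 (SD, n = 3) of the summed TPM of Itga4 and Itga6 in naive B cells, 83.2% ± 4.08 in NP-binding B cells and 90.3% ± 3.54 in PCs (exact permutation p = 0.1 for both groups against naive B cells and 0.2 between them).

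The chains of LFA-1 were high in every population. Itgal (ENSMUSG00000030830.18, chr7:127296260-127335138, plus strand), which encodes αL, was at 61.7, 66.3 and 68.3 TPM in naive B cells, 63.1, 72.3 and 53.2 in NP-binding B cells, and 67.9, 77.3 and 54.1 in PCs. All 3 groups overlapped. The log2 change was -0.08 (95% interval -0.42 to 0.26, adjusted p = 0.714) in NP-binding B cells and 0.00 (-0.34 to 0.34, adjusted p = 0.997) in PCs against naive cells, so a change past 2-fold lay outside both intervals at this scaling. With the Ig genes kept it was lower in PCs (-1.20 against naive and -1.11 against NP-binding B cells).

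Itgb2 (ENSMUSG00000000290.13, chr10:77530252-77565708, plus strand) encodes β2, which αL shares with the myeloid chains αM and αX. Its TPM was 88.8, 89.1 and 91.8 in naive B cells, 89.9, 92.1 and 77.9 in NP-binding B cells, and 129.9, 146 and 134 in PCs. The B cell groups overlapped and the PC libraries were above both. The log2 change in PCs was 0.59 against naive (SE 0.10, adjusted p = 3.67e-04) and 0.66 against NP-binding B cells (SE 0.10, adjusted p = 2.07e-04), not called at this scaling, 1.08 and 1.04 with median-of-ratios scaling, and -0.62 and -0.54 with Ig genes. The change between the B cell groups was -0.06 (95% interval -0.29 to 0.16). TPM of Itgb2 over Itgal was 1.37 ± 0.0577 in naive B cells, 1.38 ± 0.1 in NP-binding B cells and 2.09 ± 0.329 in PCs.

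Another partner of β2 was high in NP-binding B cells. Itgam, which encodes αM (CD11b), was at 2.73, 2.11 and 2.09 TPM in naive B cells, 15.6, 16.0 and 12.3 in NP-binding B cells, and 4.94, 2.43 and 1.65 in PCs. It rose in NP-binding B cells (log2 change 2.42, SE 0.30, adjusted p = 1.32e-04) and was lower in PCs than there (-2.21, SE 0.29, adjusted p = 7.46e-05). Neutrophils, macrophages and dendritic cells also express Itgam. The 4 dendritic cell markers summed to 7.08 to 7.93 TPM in naive B cells, 20.8 to 23.5 in NP-binding B cells and 7.69 to 9.50 in PCs. Most of that sum in NP-binding B cells was Flt3 (15.8 to 19.4 TPM, 1.76 to 2.38 in naive B cells and 4.45 to 5.34 in PCs), and Zbtb46, Siglech and Xcr1 were at most 3.11 TPM in any library. The 5 neutrophil markers summed to 0.462 to 1.04, 0.321 to 49.0 and 3.63 to 31.3 TPM in the 3 groups, and the 5 macrophage and monocyte markers to 1.57 to 3.64, 0.628 to 7.48 and 3.72 to 55.4. Of the 5 neutrophil markers, 3 were under 1 TPM in all NP-binding B cell libraries and 3 in all PC libraries. The part of neutrophils, macrophages and dendritic cells in the Itgam values was not tested. Itgal made up 94.1% ± 0.171 of the summed TPM of the β2 partners Itgal, Itgam, Itgax and Itgad in naive B cells, 79.3% ± 0.809 in NP-binding B cells and 93.9% ± 1.36 in PCs. The difference had exact permutation p = 0.1 against NP-binding B cells from either side, and p = 1.0 between PCs and naive B cells.

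Icam1 (ENSMUSG00000037405.8, chr9:21015985-21028817, plus strand) encodes the LFA-1 ligand that B cells show to T cells. It was at 49.9, 48.7 and 52.9 TPM in naive B cells, 45.2, 42.0 and 36.4 in NP-binding B cells, and 9.34, 10.5 and 11.5 in PCs. The groups did not overlap, and the gap lay before PCs. Icam1 was 4.69-fold lower in PCs than in naive cells (log2 change -2.23, SE 0.15, adjusted p = 3.48e-07) and 3.8-fold lower than in NP-binding B cells (-1.93, SE 0.15, adjusted p = 1.55e-06), called under every setting. In NP-binding against naive B cells the log2 change was -0.30 (SE 0.12, adjusted p = 0.0616). Icam2, another LFA-1 ligand, had a different course. It was at 231, 233 and 232 TPM in naive B cells, 73.2, 92.1 and 90.5 in NP-binding B cells, and 186, 183 and 179 in PCs, with a log2 change of -1.46 (SE 0.10, adjusted p = 3.34e-06) in NP-binding against naive B cells and 1.11 (SE 0.10, adjusted p = 5.18e-06) in PCs against NP-binding B cells, the latter -0.10 with Ig genes. TPM of Icam2 over Icam1 was 4.60 ± 0.202, 2.10 ± 0.438 and 17.6 ± 2.16 in the 3 groups, a ratio that a single scaling factor per library does not alter.

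Cd44 (ENSMUSG00000005087.17, chr2:102811141-102901665, minus strand) encodes a receptor for hyaluronan that is known as a marker of antigen-experienced lymphocytes. It was at 19.3, 18.2 and 25.1 TPM in naive B cells, 25.9, 32.0 and 22.5 in NP-binding B cells, and 93.0, 97.3 and 71.0 in PCs. The B cell groups overlapped and the PC libraries stood apart. Cd44 was 4.08-fold higher in PCs than in naive cells (log2 change 2.03, SE 0.19, adjusted p = 3.99e-06) and 3.22-fold higher than in NP-binding B cells (1.69, SE 0.18, adjusted p = 1.51e-05), and with Ig genes the changes were 0.83 and 0.49, under the required fold. Between NP-binding and naive B cells it was 0.34 (95% interval -0.11 to 0.80, adjusted p = 0.202).

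Cd93 (ENSMUSG00000027435.8, chr2:148436640-148443563, minus strand) was at 2.35, 2.34 and 2.65 TPM in naive B cells, 3.31, 2.07 and 0.544 in NP-binding B cells, and 16.8, 19.9 and 11.3 in PCs. It was low in both B cell groups, which overlapped, and all PC libraries were higher. The rise in PCs was 5.45-fold over naive (log2 change 2.45, SE 0.37, adjusted p = 1.75e-04) and 7.44-fold over NP-binding B cells (2.90, SE 0.40, adjusted p = 1.02e-04), and it was called with Ig genes too (1.32 and 1.75). Between NP-binding and naive B cells the change was -0.45 (95% interval -1.48 to 0.58), and 0.08 without NP-binding B cell replicate 3. Myeloid and endothelial cells also express Cd93. The 5 macrophage and monocyte markers in the table summed to 3.72, 12.6 and 55.4 TPM in PC replicates 1, 2 and 3 and to 0.628 to 7.48 in B cell libraries, and the 5 endothelial markers to 6.30, 5.29 and 3.66 in PCs and 2.00 to 4.85 in B cells. Of the endothelial markers, Egfl7 was at 0.710 to 1.14 TPM in naive B cells, 1.31 to 3.99 in NP-binding B cells and 1.84 to 4.55 in PCs. Cdh5 was at 0.133 to 0.197, 0.164 to 0.441 and 0.509 to 1.02 TPM. Kdr, Cldn5 and Tie1 were at most 0.836 TPM in any library. PC replicate 3, with the most macrophage, liver and neutrophil transcripts of the PCs, had the lowest Cd93, Cd44, Itga4, Itgal, Itgb1 and Itgb7 of the PCs and the highest Icam1 and Itga6, and Itgb2 lay between the other two. The part of other cells in these values was not tested. Leaving out that library together with NP-binding B cell replicate 2, chosen after the data were seen, changed no call among the 9 genes.

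**Figure D4:**
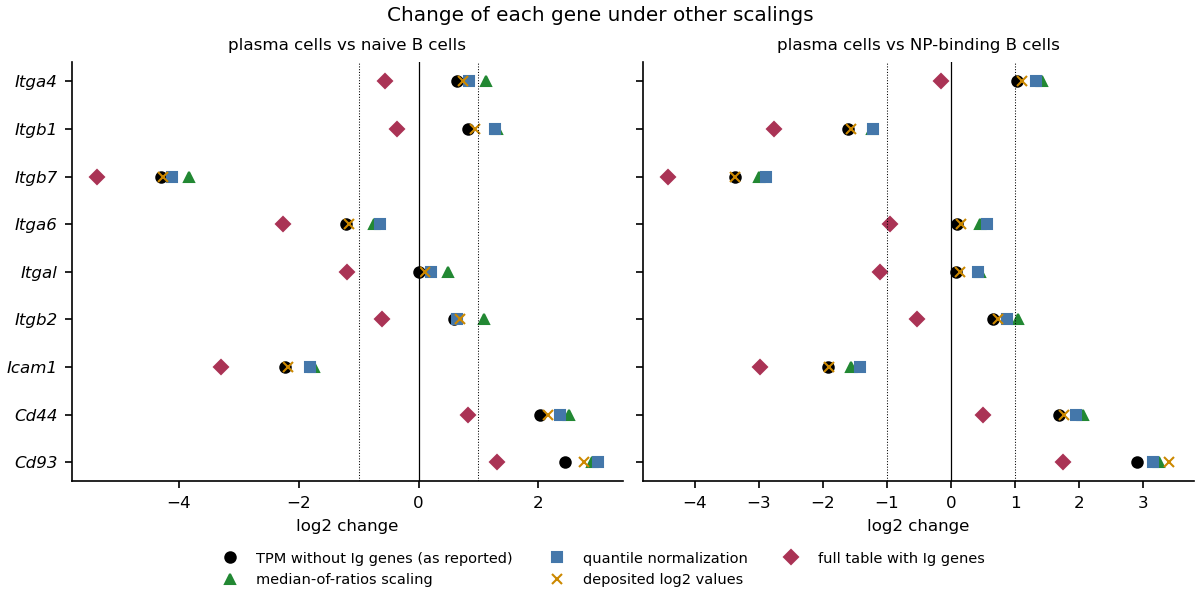
Log2 change of each gene in PCs against naive cells (left) and against NP-binding B cells (right) under 5 scalings, with dotted lines at a fold change of 2. Itgb7 and Icam1 lie below 0 and Cd44 and Cd93 above 0 under all 5, with Cd44 under the required fold in the full table with Ig genes (0.83 and 0.49). Itga4, Itgal and Itgb2 lie below 0 in both panels with the full table with Ig genes (diamonds), as do Itgb1 in the left panel and Itga6 in the right.

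Genes of integrin activation and the link to actin were counted next, from a list of 37 genes of which 32 were tested. The list holds activators and inactivators of RAP1, inhibitors of integrins and proteins that join integrins to actin. In NP-binding against naive B cells, 3 were higher and 3 lower (8.13 and 10.4% of all genes), and the median log2 change was -0.04. In PCs against naive cells, 4 were higher and 15 lower (11.4 and 26.3% of all genes) with a median of -0.96, beside -0.47 over all genes, and the counts were 5 and 13 with median-of-ratios scaling and 1 and 24 with Ig genes. In PCs against NP-binding B cells, 1 was higher and 15 lower (9.93 and 22.3% of all genes, median -0.78 beside -0.30), and 4 and 9 with median-of-ratios scaling and 0 and 23 with Ig genes. These percentages are those of the main setting. In both PC comparisons more of all genes were lower with Ig genes kept, and fewer with median-of-ratios scaling, as given above. Rasgrp2, the exchange factor that loads RAP1, was at 297 ± 8.47 TPM in naive B cells, 293 ± 13.7 in NP-binding B cells and 20.3 ± 4.49 in PCs (log2 change against naive -3.87, SE 0.14, adjusted p = 3.07e-09). Sipa1, a RAP1 inactivator, was at 254 ± 10.4, 129.5 ± 24.2 and 15.4 ± 2.26 TPM (-4.02 in PCs, SE 0.17, adjusted p = 1.11e-08). An activator and an inhibitor of RAP1 were thus the 2 largest falls of the list.

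The adaptor Fyb, which joins T cell receptor signals to integrins, was at 1.13, 0.704 and 0.743 TPM in naive B cells, 22.3, 3.58 and 14.7 in NP-binding B cells and 20.2, 17.1 and 24.7 in PCs. Only 1 naive library reached the 1 TPM that the filter asks for in 3 libraries, so Fyb, counted above as higher in both groups, entered the test through the groups where it is high, and it is given as a description. Its partner Skap1 fell from 5.88 ± 1.25 to 0.809 ± 0.258 TPM in NP-binding B cells (-2.29, adjusted p = 4.14e-04). The T cell markers summed to 56.1 to 64.1 TPM in naive, 24.3 to 58.4 in NP-binding B cell and 4.54 to 7.20 in PC libraries. Lck, a kinase, made up most of that sum in the B cell groups, at 49.5 to 56.7, 20.4 to 53.7 and 0.264 to 0.995 TPM in the 3 groups. Cd3d, Cd3e, Cd3g, Cd4 and Cd8a were at most 3.19 TPM in any library. The part of T cells in the Fyb and Skap1 values was not tested. Rap1gap, another RAP1 inactivator, rose from 1.75 ± 0.327 to 5.69 ± 0.679 TPM in NP-binding B cells (1.46, adjusted p = 0.00199). Parvb, which encodes the actin link β-parvin, rose in PCs from 4.21 ± 0.975 to 16.9 ± 3.01 TPM (1.88, adjusted p = 0.00189), and the change was 0.75 with Ig genes. Ptk2b, the kinase PYK2, dipped in NP-binding B cells, with 200.9 ± 2.63 TPM in naive B cells, 74.8 ± 7.09 there and 175 ± 25.9 in PCs. Its changes were -1.43 (adjusted p = 1.27e-05) in NP-binding against naive B cells and 1.22 (adjusted p = 1.15e-05) in PCs against NP-binding B cells, the latter 0.02 with Ig genes.

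**Figure D5:**
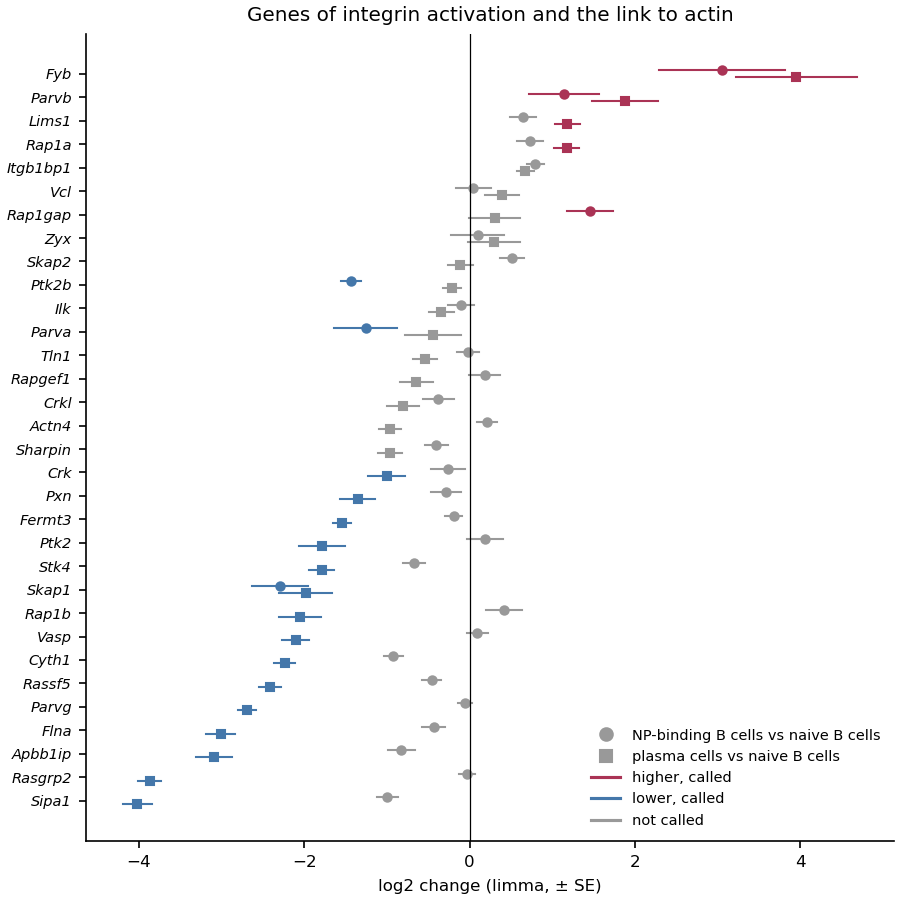
Log2 change (horizontal axis, limma on the table without Ig genes, bars ± SE) of the 32 tested genes of integrin activation and the link to actin, in NP-binding B cells (circles) and PCs (squares) against naive B cells. Red and blue mark genes called higher and lower, 3 and 3 for circles and 4 and 15 for squares. With Ig genes kept the squares gave 1 and 24, a setting in which more of all genes were lower in PCs too. Sipa1 and Rasgrp2 have the lowest squares.

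Of 20 other integrin chains, 8 were tested. NP-binding against naive B cells gave 1 higher (Itgam) and 0 lower. These stand beside 8.13 and 10.4% of all genes. In PCs 2 were higher than in naive B cells and 0 lower (11.4 and 26.3% of all genes), 0 and 2 of 6 with Ig genes kept, and 0 and 1 without PC replicate 3 and NP-binding B cell replicate 2. The 2 higher genes, Itga2b and Itgb5, named after their values were seen, stayed at or under 5.26 TPM in every library and were not called in the deposited log2 values. Itgb5 reached 1 TPM in only 1 B cell library and so entered the test through PCs, where it is high. The 4 platelet markers, of which Itga2b is one, summed to 1.90 to 2.83 TPM in naive B cells, 0.0837 to 1.77 in NP-binding B cells and 2.50 to 8.92 in PCs. Itga2b itself, at 2.34, 3.33 and 5.26 TPM, made up most of the sum in each PC library. Itgav, the αV chain of vitronectin receptors, was at 18.6, 15.5 and 22.5 TPM in naive B cells, 26.4, 15.4 and 19.7 in NP-binding B cells and 8.67, 7.95 and 12.2 in PCs, and its log2 change of -1.04 between NP-binding B cells and PCs (SE 0.25, adjusted p = 0.0043) was lost under 5 of the other settings.

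Other adhesion proteins of the immunoglobulin superfamily, 10 tested of 14, gave 0 higher and 2 lower in NP-binding B cells (8.13 and 10.4% of all genes) and 3 higher and 2 lower in PCs (11.4 and 26.3%), each against naive cells. With Ig genes kept the PC counts were 2 and 5 of 9, a setting in which more of all genes were lower too. Of the 3 higher in PCs, Icam4 and F11r, named after their values were seen, reached 1 TPM in only 2 B cell libraries each and so entered the test through PCs, where they are high, which leaves Alcam. The 2 lower in NP-binding B cells were Icam2 and Alcam, and the call of Alcam (log2 change -1.11, adjusted p = 0.0408) was lost under 8 settings. Cd2, a lymphocyte adhesion receptor, was at 411 ± 8.71 TPM in naive, 393 ± 32.6 in NP-binding B cells and 17.9 ± 3.54 in PCs (log2 change against naive -4.51, SE 0.15, adjusted p = 1.41e-09). Pecam1, an adhesion protein of leukocytes and vessels, was at 152 ± 18.6, 103 ± 12.6 and 35.0 ± 17.8 TPM (-2.21 in PCs, SE 0.25, adjusted p = 2e-05). Alcam, the CD6 ligand, was at 6.01, 5.92 and 5.53 TPM in naive B cells, 3.50, 3.87 and 0.960 in NP-binding B cells and 47.1, 48.2 and 34.6 in PCs (2.77 against naive, SE 0.28, adjusted p = 8.9e-06). The integrin ligand genes Vcam1 and Madcam1 were at most 2.40 and 0.270 TPM in any library.

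Selectins and sialomucins, 6 tested of 11, gave 1 higher and 1 lower in NP-binding B cells (8.13 and 10.4% of all genes) and 2 higher and 1 lower in PCs (11.4 and 26.3%), each against naive cells. The PC counts were 1 and 2 with Ig genes kept, and 2 and 2 without PC replicate 3 and NP-binding B cell replicate 2. Selplg, the P-selectin ligand PSGL-1, was at 79.6, 73.1 and 75.9 TPM, then 59.5, 55.3 and 66.7, then 240.3, 256 and 216 (1.62 in PCs against naive, SE 0.10, adjusted p = 2.7e-07, and 0.41 with Ig genes). Spn, the sialomucin CD43, was at 3.92 ± 0.914 TPM in naive, 14.1 ± 5.61 in NP-binding B cells and 19.1 ± 3.53 in PCs (1.65 and 2.15 against naive, adjusted p = 0.0044 and 3.2e-04). Cd34 fell in NP-binding B cells from 14.0 ± 2.83 to 5.39 ± 1.04 TPM (-1.31, adjusted p = 0.00631).

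Among partners of CD44 and hyaluronan genes, 12 tested of 16, 1 was higher and 3 lower in NP-binding B cells (8.13 and 10.4% of all genes) and 2 higher and 4 lower in PCs (11.4 and 26.3%), each against naive cells. With Ig genes kept the PC counts were 1 and 9 of 11, and with median-of-ratios or quantile scaling the NP-binding B cell counts were 1 and 1. The percentages are those of the main setting. More of all genes were lower in PCs with Ig genes kept, and fewer were lower in NP-binding B cells with median-of-ratios scaling. The linkers of CD44 to actin are given gene by gene, and differences between them were not tested. Msn (moesin) was at 640.0 ± 60.7 TPM in naive, 470.0 ± 44.6 in NP-binding B cells and 80.6 ± 9.69 in PCs (log2 change against naive -2.99, SE 0.12, adjusted p = 8.15e-09), and Ezr (ezrin) fell from 379 ± 5.96 to 183 ± 21.7 TPM in NP-binding B cells (-1.06, SE 0.11, adjusted p = 3.17e-05), a call lost with median-of-ratios scaling and without NP-binding B cell replicate 3. Ezr was at 73.6 to 90.7 TPM in PCs (-2.255 against naive, SE 0.115, adjusted p = 4.2e-08). Rdx (radixin) was at 31.3 to 40.3 TPM in naive B cells, 33.2 to 35.1 in NP-binding B cells and 32.4 to 36.8 in PCs, with log2 changes of -0.034 and 0.015 against naive cells (adjusted p = 0.85 and 0.929). Nf2 (merlin), of the same protein family, had changes of -0.094 and -0.12 (adjusted p = 0.764 and 0.671). Cd74, the invariant chain that also pairs with CD44, was at 30130 ± 1484, 18970 ± 322 and 5230 ± 361 TPM in the 3 groups (-2.53 in PCs, SE 0.07, adjusted p = 5.03e-10). Srgn, the proteoglycan serglycin that CD44 binds, was at 587 ± 40.8, 669 ± 61.2 and 1409 ± 51.3 TPM (1.26 in PCs against naive, SE 0.09, adjusted p = 4.76e-07), a call lost with Ig genes kept (0.04) and with quantile normalization. Hmmr, a hyaluronan receptor best known as a mitotic spindle protein, rose from 5.61 ± 1.66 to 37.9 ± 5.26 TPM in NP-binding B cells (2.67, adjusted p = 9.68e-06) and 32.3 ± 2.71 in PCs (2.46, adjusted p = 3.59e-06).

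Of 4 relatives and ligands of CD93, only Thbd, thrombomodulin, passed the filter. It was at 0.804, 0.364 and 0.488 TPM in naive B cells, 0.104, 0.0441 and 0.903 in NP-binding B cells and 6.27, 5.73 and 5.03 in PCs. No B cell library reached the 1 TPM that the filter asks for in 3 libraries, so Thbd entered the test through PCs alone, and its difference is given as a description. The endothelial marker sums given with Cd93 apply here too.

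For each of the 7 called genes, the 3 tested genes with the closest course over the 9 libraries were listed by Pearson r of log2(TPM + 0.5), as a description. Itgb1 was closest to Tmem18 (r = 0.997), S1pr2 (0.993), a receptor that confines germinal centre B cells, and H2afx (0.989), a histone of dividing cells and DNA repair. S1pr2 was at 0.815 TPM in naive, 37.9 in NP-binding B cells and 4.74 in PCs. Itgb7 was closest to Arhgap27 (0.999), Kdm2a (0.997) and Ncoa3 (0.997), and Icam1 to Kmo (0.999), AB124611 (0.998) and Gripap1 (0.996). These 2 courses were common, with 990 and 1021 genes over r = 0.95. Cd44 was closest to Ero1l (0.995), Sept11 (0.992) and Edem1 (0.988), and 353 genes were over 0.95. Ero1l and Edem1 act in oxidative folding and degradation in the endoplasmic reticulum. Cd93 was closest to Gm8818 (0.995), Creb3 (0.987) and Sec31a (0.986), with 126 genes over 0.95, and Itgb1 had 123. Itga4 was closest to Gvin1 (0.983), Nnt (0.982) and Wdr33 (0.981), with 31 genes, and Itga6 to Fau (0.987), Gprasp2 (0.974) and Rpl30 (0.971), with 14. The 9 libraries fall into 3 groups, so r mainly reflects the group levels.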

How the data were processed

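RNA-seq libraries from 9 sorted samples (3 groups of 3) were used, with groups taken from the labels. The deposited TPM values were made by the authors with kallisto (the submitters' notes name mm10), summed per gene symbol, for all 30317 genes and for 29995 genes without Ig genes. Log2 values, which the authors deposited after voom, served to recover the estimated reads per gene and library. The paper names Illumina HiSeq and NextSeq machines for its libraries. Which of them read the libraries used here is not given in the sources at hand. From TPM of the table without Ig genes, differences were tested with limma 3.58.1 (R 4.3.3) on voom values (log2 of TPM + 0.5, scaled to the column sum), with all 9 libraries, 3 group means and no block. The 12892 genes that reached a TPM of 1 in 3 or more libraries were tested, p-values were adjusted by Benjamini-Hochberg over all of them, and a call needed adjusted p under 0.05 and a fold change over 2. Log2 changes on this scale understate the change of low genes. Shares within a library were compared by two-sided exact permutation tests. The text names the 9 genes, up to 2 called genes of each list per direction and comparison with a mean TPM of at least 5, and the 3 closest genes of each called member, and some genes that this rule names are not reported here. Members and lists were chosen with earlier results of these data known. Positions are from GENCODE vM21 and sequences from RefSeq. Alternatives were other scalings, filters, offsets and tables, a replicate block and leaving out libraries. The series' design text gives 3 mice for the 3 cell types, and the sample labels do not say which libraries share a mouse. The groups may therefore come from the same mice, and the tests without a block treat their libraries as independent. The number of columns not used was 0.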

Additional observations from a re-analysis of the deposited data

How the results depend on the processing

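Each comparison was recomputed under 20 other settings, and 34 of 537 values of the 9 genes changed their call or direction (7 weaker, 7 stronger and 20 reversed), of which the 13 calls of the report lost theirs only for Itga6, Itga4 and Cd44 as given there and for Cd93, which a filter on mean TPM of at least 10 removes. That filter left 1179 genes called for NP-binding against naive B cells, 2965 for PCs against naive and 2640 for PCs against NP-binding B cells, and 1 of the 9 higher in PCs against naive. With Ig genes kept, 8494 and 7775 genes were called in the PC comparisons, and 1 of the 9 was higher in each. In PCs against naive cells Itga4, Itgb1, Itgal and Itgb2 then had log2 changes of -0.56, -0.35, -1.20 and -0.62, and in PCs against NP-binding B cells Itga4, Itga6, Itgal and Itgb2 had -0.15, -0.96, -1.11 and -0.54, a table in which Ig transcripts take part of the fixed sum. With median-of-ratios scaling 5 of the 9 were higher in PCs against naive cells, where more of all genes were higher too. Under that scaling Itgal and Itgb2 in NP-binding against naive B cells had 0.033 and 0.045, not called. With quantile normalization 2 of the 9 were lower in NP-binding against naive B cells. Leaving out 1 library gave 1 to 2 of the 9 lower in that comparison (2 without NP-binding B cell replicate 1, by Itgb7). In NP-binding against naive B cells it gave -0.183 to 0.039 for Itgal, -0.112 to 0.01 for Itgb2, -0.855 to 0.081 for Cd93 and -1.02 to -0.85 for Itgb7. In PCs against naive cells it gave -0.12 to 0.14 for Itgal and -1.39 to -0.99 for Itga6. In PCs against NP-binding B cells it gave -0.15 to 0.35 for Itga6, -0.039 to 0.219 for Itgal and 0.92 to 1.16 for Itga4. For the Itgal share in PCs against naive cells it gave -0.71 to 0.59 percentage points. Where no cause is named, the cause was not tested. Same-numbered libraries did not deviate together (correlations of deviations -0.075 to 0.068), so the numbers were not taken as a pairing. A fit with a replicate block gave 2453, 4898 and 4238 calls beside 2388, 4870 and 4150, and changed no call of the 9 genes. Of the 9 genes, Itga6 had the fewest estimated reads in a library, 93 in PC replicate 2. Cd93 had 113 in NP-binding B cell replicate 3.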

Other observations

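Tetraspanins are membrane proteins that group integrins into clusters. All 15 of the list were tested. In NP-binding against naive cells 1 was higher and 1 lower (8.13 and 10.4% of all genes), in PCs against naive 4 and 3 (11.4 and 26.3%), and in PCs against NP-binding B cells 3 and 3 (9.93 and 22.3%). These counts are not read as a result about the family. With Ig genes kept the PC counts were 1 and 6, then 2 and 8. Cd9, a partner of β1 integrins, was at 16.7, 17.3 and 22.7 TPM in naive B cells, 48.7, 50.0 and 48.8 in NP-binding B cells and 81.5, 82.2 and 96.8 in PCs, with log2 changes against naive of 1.36 (SE 0.15, adjusted p = 5.38e-05) and 2.17 (SE 0.14, adjusted p = 2.74e-07), the latter 0.97 with Ig genes. Tspan15 was at 2.57 ± 0.784 TPM in naive, 1.72 ± 0.405 in NP-binding B cells and 17.5 ± 2.36 in PCs (2.57 against naive, adjusted p = 4.52e-06). Tspan4 rose from 0.886 ± 0.782 TPM in NP-binding B cells to 5.37 ± 2.48 in PCs (2.23, adjusted p = 0.00314). Cd37 and Tspan32, tetraspanins of leukocytes, were low in PCs. Cd37 was at 932 ± 53.7, 764 ± 11.9 and 109 ± 7.84 TPM in the 3 groups (-3.10 in PCs against naive, adjusted p = 6.76e-10), and Tspan32 at 319 ± 9.68, 300.0 ± 17.7 and 14.7 ± 2.31 TPM (-4.41, adjusted p = 9.41e-10).

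Among the 9 genes, 9 pairs had a Pearson r over 0.9 or under -0.9 across the 9 libraries, given as a description since the libraries form 3 groups. Itgb2 went with Cd93 (0.974), Cd44 (0.953) and Itga4 (0.914), and Cd44 with Cd93 (0.914). Itgb7 and Icam1 went with each other and opposite to Cd44 (-0.942 and -0.967) and Itgb2 (-0.914 and -0.927). Itgb1, Itga6 and Itgal were in none of these pairs.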
